A study of Mus musculus with 8 samples.

Results

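The genes described here are 10 transcription factors and regulators of the circadian clock and its PAR bZip output branch: Arntl, Clock, Npas2, Per1, Per2, Per3, Dbp, Tef, Hlf and Nfil3. They were picked by name from a table of 23534 gene rows with a value in every library. Each symbol had 1 row, and all 10 passed the minimum of a mean of 1 FPKM that 11974 genes met. Poly(A) RNA was sequenced from heart ventricles of C57BL/6 mice at postnatal day 21, in 8 stranded libraries. The 4 knockout libraries came from mice with a cardiac deletion of Med1, labelled Med1KO, and the 4 control libraries, labelled WT, from Med1fl/fl mice that carry the floxed allele. Med1 is a subunit of Mediator, which links transcription factors to RNA polymerase II. The sources used here do not give the promoter that drove the deletion, the sex of the mice, whether a library was 1 animal, the hour of collection or the lighting schedule. If libraries were not separate animals, the p-values cover only how these samples vary, which may be technical.

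In the mammalian clock, ARNTL (also called BMAL1) pairs with CLOCK or with its relative NPAS2 and switches on genes that carry E-box motifs, among them the Per and Cry genes. PER and CRY proteins then inhibit that pair, so that the loop turns over about daily. A further loop acts on Arntl and Npas2 through RORE motifs, at which ROR receptors activate and the REV-ERB receptors, encoded by Nr1d1 and Nr1d2, repress. Dbp, Tef and Hlf encode the PAR bZip activators, which bind D-box motifs. NFIL3, also known as E4BP4, is a bZip repressor of the same motif. In the heart the clock of cardiomyocytes is known for timing ion channel and metabolic genes.

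Promoter windows from RefSeq (GRCm38.p6, 250 bases before to 50 after each annotated start) were found for 9 of the 10 members, and no window was found for Per2. The E-box was searched as CACGTG, the D-box as TTATGTAA or TTACGTAA, the core of the RORE as TAGGTCA and the cyclic AMP response element as TGACGTCA, each on both strands. Of 32851 windows of this length, 7.15% held the E-box, 1.06% a D-box, 2.61% the RORE core and 1.79% the cyclic AMP element. Matches were present in 6 members, and their stretches are shown. The E-box, D-box and RORE are sites through which clock proteins are known to act, and the cyclic AMP element was searched in addition. Capitals mark the match, each stretch reads 5′ to 3′ on the strand of the gene, and positions count from the first transcribed base as 1.
Per3, D-box, chr4:151044804-151044882, minus strand: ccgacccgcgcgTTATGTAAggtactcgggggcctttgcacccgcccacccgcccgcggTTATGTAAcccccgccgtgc
Nfil3, RORE core in reverse, chr13:52981040-52981091, minus strand: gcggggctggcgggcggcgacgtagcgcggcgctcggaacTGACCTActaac
Arntl, RORE core, chr7:113207530-113207558, plus strand: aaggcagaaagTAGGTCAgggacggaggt
Per1, E-box, chr11:69098758-69098813, plus strand: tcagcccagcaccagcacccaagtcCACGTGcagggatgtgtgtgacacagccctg
Tef, E-box at the upstream start, chr15:81802521-81802576, plus strand: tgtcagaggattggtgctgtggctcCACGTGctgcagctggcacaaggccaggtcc
Tef, E-box at the downstream start, chr15:81811251-81811306, plus strand: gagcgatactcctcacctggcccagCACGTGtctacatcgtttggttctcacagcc
Hlf, cyclic AMP element, chr11:90390918-90390966, minus strand: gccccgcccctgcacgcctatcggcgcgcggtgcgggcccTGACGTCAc
Per3 thus held 2 copies of TTATGTAA, the first starting at -205 and the other at -158, and the match of Nfil3 started at -12. The match of Arntl started at 31, inside the transcribed part. The windows of Dbp, Clock and Npas2 held none of these letters. A match is a description of the sequence and was not tested for binding.

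Med1 itself fell in the knockout, from 14.8 ± 2.83 to 8.31 ± 0.619 FPKM (SD, n = 4 each; limma adjusted p = 0.0011). FPKM count fragments per transcript length and sequencing depth, and summed to between 481650 and 536146 in a library. Sequencing depth itself is unknown. The median of all genes tested was 0.25 higher in the knockout on the log2(FPKM + 1) scale as deposited and 0.01 after the libraries were rescaled to a common median ratio, so both versions are given where they differ. Of 8 cardiomyocyte markers 7 fell and 1 rose, also after rescaling, where 16.4% of all genes were called lower as deposited and 26.9% rescaled. Their summed level was 46902 to 51651 FPKM in WT and 11673 to 16774 in the knockout. Of 7 fibroblast markers 5 rose as deposited and 3 rescaled, where 44.9% and 27.0% of all genes were called higher. Their summed levels as deposited were 658 to 777 FPKM in WT and 949 to 1685 FPKM in the knockout. In bulk tissue fewer cells of a type and less RNA per cell cannot be told apart, and the part of these shifts in the results below was not tested. WT 3 stood apart in lymphocyte markers (summed level of 25.9 FPKM against 1.74 to 3.16 in the other 7 libraries). Of 5 atrial cardiomyocyte markers 4 rose, also after rescaling, beside 44.9% of all genes called higher as deposited and 27.0% rescaled. Their summed levels were 196 to 381 FPKM in WT and 5043 to 7934 FPKM in the knockout. Most of that sum was Nppa, at 188 to 372 FPKM in WT and 5018 to 7829 FPKM in the knockout. Nr2f2 was not called, and in knockout 3 Myl7 and Sln reached only 2.50 and 0.429 FPKM. Knockout 4 stood apart in 3 of these atrial markers. Myl7 had 726 FPKM there against at most 61.6 in any other library, Myl4 781 against at most 81.7 and Sln 188 against at most 18.6. Knockout 4 also stood apart in adipocyte markers (149 FPKM against 0 to 12.2). In neuron and glia markers it had 16.5 FPKM against 3.15 to 5.61. Calls of the 10 members that change without WT 3 or knockout 4 are given both ways.

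Clock activator genes and the D-box repressor gene were higher in the knockout, and the D-box activator genes were lower. Arntl, Clock and Nfil3 rose, Per3, Dbp, Tef and Hlf fell, and Npas2, Per1 and Per2 did not pass the test. These 3 rises and 4 falls were called by limma at an adjusted p under 0.05, against 44.9% of all genes tested called higher and 16.4% called lower. After rescaling the same counts of 3 and 4 stood against 27.0% and 26.9% (53.9% in either direction), and after quantile normalization against 28.7% and 25.6% (54.3%). The 7 called members are near the share of all genes called in either direction (61.3%), so the number called is not particular to them. The median log2 change of the 10 members was 0.23 as deposited and -0.03 after rescaling, close to 0.25 and 0.01 over all genes. In all 7 called members the 4 knockout libraries lay wholly above or wholly below the 4 WT libraries, a pattern found in 41.7% (above) and 15.3% (below) of all genes tested, 57.0% together.

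**Figure D1:**
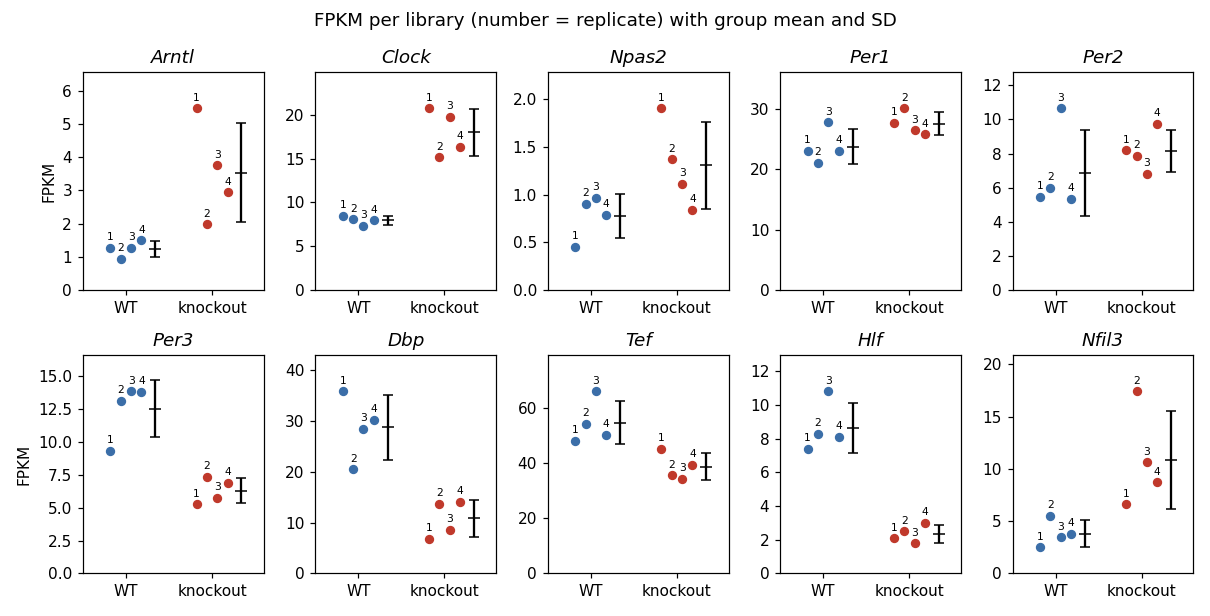
FPKM (y axis, from 0) of each member in the 4 WT libraries (blue) and the 4 knockout libraries (red), numbered by replicate, with group mean and SD in black. Arntl, Clock and Nfil3 sit higher and Per3, Dbp, Tef and Hlf lower in every knockout library, while Npas2, Per1 and Per2 overlap.

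Among the activators, Clock and Arntl rose and Npas2 did not pass. Clock, which encodes the partner of ARNTL (chromosome 5, 76212177 to 76304548 in mm10), had 8.48, 8.06, 7.33 and 7.95 FPKM in WT 1 to 4 and 20.7, 15.1, 19.8 and 16.3 FPKM in knockout 1 to 4. Every knockout library was well above every WT library. Mean levels of 7.95 ± 0.474 and 18.0 ± 2.69 FPKM (SD, n = 4 each) gave a ratio of 2.26. The difference on the log2 scale was 1.08 ± 0.11 (SE; adjusted p = 3.09e-05, limma) as deposited and 0.82 rescaled.

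Arntl, the only clock gene whose loss alone is known to stop the rhythm in mice (chromosome 7, 113207465 to 113314126), was scarce in WT. It had 1.27, 0.936, 1.26 and 1.50 FPKM in WT 1 to 4 and 5.47, 1.98, 3.76 and 2.94 FPKM in knockout 1 to 4. The groups did not overlap, and the knockout libraries differed among themselves by 2.76 times from lowest to highest. The means of 1.24 ± 0.233 and 3.54 ± 1.48 FPKM (SD, n = 4 each) differed by a ratio of 2.84. On the log2(FPKM + 1) scale, which understates changes of such low values, the change was 0.96 ± 0.22 (SE, limma adjusted p = 0.00363), and 0.78 rescaled.

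Npas2, the CLOCK relative (chromosome 1, 39194272 to 39363240), was the lowest member. Its values were 0.455, 0.901, 0.970 and 0.792 FPKM in WT 1 to 4 and 1.91, 1.37, 1.11 and 0.838 FPKM in knockout 1 to 4. Knockout 4 lay inside the WT range and the other 3 knockout libraries above it. The log2 change of 0.36 ± 0.17 (SE) did not pass (limma adjusted p = 0.0952, with a range of 0.0363 to 0.389 across alternatives). Without knockout 4, the library with adipocyte, atrial and neuron and glia markers, it was 0.47 and passed (limma adjusted p = 0.0363). Both changes are as deposited. Rescaled with all 8 libraries, the change of Npas2 was 0.23 (limma adjusted p = 0.298). In WT the Clock level was 7.56 to 18.6 times that of Npas2 within a library, and in the knockout 10.9 to 19.5 times.

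The 3 Period genes, whose proteins inhibit the ARNTL pair, did not move alike. Per3 (chromosome 4, 151003655 to 151044622) fell, with 9.34, 13.1, 13.8 and 13.8 FPKM in WT 1 to 4 and 5.25, 7.33, 5.76 and 6.89 FPKM in knockout 1 to 4. WT 1 was the lowest WT library and still above every knockout library. The mean went from 12.5 ± 2.16 to 6.31 ± 0.965 FPKM (SD, n = 4 each), or 50.3% of WT, a difference of -0.88 ± 0.14 on the log2 scale (SE; adjusted p = 0.000503, limma) as deposited and -1.13 rescaled. The promoter stretch of Per3 with its 2 D-box matches is printed above.

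Per1, the Period gene known for rapid induction by hormones and cyclic AMP (chromosome 11, 69098956 to 69109957), had 23.1, 21.1, 27.8 and 23.1 FPKM in WT and 27.7, 30.1, 26.4 and 25.8 FPKM in the knockout, in order of replicate. WT 3 lay within the knockout range. The log2 change was 0.21 ± 0.09 (SE, limma adjusted p = 0.0816) as deposited, and its sign turned on rescaling (-0.06, adjusted p = 0.617). Per2 (chromosome 1, 91415982 to 91459328) had 5.45, 6.01, 10.7 and 5.34 FPKM in WT and 8.19, 7.86, 6.83 and 9.73 FPKM in the knockout. WT 3 was the highest of all 8 libraries and the other WT libraries the lowest 3. The log2 change of 0.26 ± 0.19 (SE) did not pass (limma adjusted p = 0.273) and was 0.01 after rescaling.

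Both calls depended on WT 3, the library with lymphocyte markers. Without it Per1 had a log2 change of 0.28 (limma adjusted p = 0.0205) and Per2 of 0.46 (limma adjusted p = 0.00935), which raised the members called higher from 3 to 5. These values are as deposited, where the median gene is itself 0.25 higher. The summed level of the 3 Period genes was 43.2 ± 6.35 FPKM in WT and 42.0 ± 2.61 FPKM in the knockout (SD, n = 4 each), so the groups overlapped. Within that sum the share of Per3 was 24.7% to 32.7% in WT and 12.8% to 16.2% in the knockout, with no overlap and with library scaling cancelled.

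All 3 PAR bZip activator genes fell, Hlf by the most. Hlf, the hepatic leukemia factor gene (chromosome 11, 90336535 to 90390917), had 7.39, 8.31, 10.8 and 8.12 FPKM in WT 1 to 4 and 2.09, 2.49, 1.79 and 3.01 FPKM in knockout 1 to 4. The lowest WT library was more than 2 times the highest knockout library. The mean went from 8.66 ± 1.49 to 2.34 ± 0.530 FPKM (SD, n = 4 each), or 27.1% of WT, a difference of -1.53 ± 0.14 on the log2 scale (SE; adjusted p = 2.18e-05, limma) as deposited and -1.75 rescaled.

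Dbp, whose transcript is among the most strongly rhythmic in mouse tissues (chromosome 7, 45705247 to 45710203), had 35.8, 20.4, 28.4 and 30.2 FPKM in WT 1 to 4. The values in knockout 1 to 4 were 6.82, 13.7, 8.61 and 14.1 FPKM. The groups did not overlap, and both were spread widely, by 1.75 times within WT and 2.07 times within the knockout. The mean went from 28.7 ± 6.34 to 10.8 ± 3.64 FPKM (SD, n = 4 each), or 37.6% of WT, and the log2 change was -1.36 ± 0.24 (SE, limma adjusted p = 0.000849) as deposited and -1.62 rescaled. Dbp overlaps the end of Sphk2, which lies on the other strand, and the sources used here do not say whether counting used strand. Sphk2 had 10.6 ± 0.799 FPKM in WT and 9.49 ± 0.439 FPKM in the knockout (SD, n = 4 each), a log2 change of -0.14 that did not pass as deposited (limma adjusted p = 0.127). Rescaled it was -0.40 and passed (limma adjusted p = 0.00205).

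Tef, the thyrotroph embryonic factor gene (chromosome 15, 81802673 to 81826863), was the most abundant member and fell least. It had 48.2, 54.3, 66.0 and 50.4 FPKM in WT and 45.3, 35.6, 34.4 and 39.4 FPKM in the knockout, in order of replicate. The highest knockout library was just below the lowest WT library. The mean went from 54.7 ± 7.93 to 38.7 ± 4.87 FPKM (SD, n = 4 each), or 70.7% of WT, a difference of -0.49 ± 0.12 on the log2 scale (SE; adjusted p = 0.00597, limma) as deposited and -0.76 rescaled. Because Dbp and Hlf fell further, the share of Tef in the summed level of the 3 genes was 52.8% to 65.4% in WT and 68.8% to 83.6% in the knockout. The sum itself was 92.1 ± 9.43 FPKM in WT and 51.8 ± 5.05 FPKM in the knockout (SD, n = 4 each).

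Nfil3, the repressor of the same motif (chromosome 13, 52967209 to 52981039), went the other way. It had 2.48, 5.51, 3.46 and 3.79 FPKM in WT 1 to 4 and 6.62, 17.4, 10.6 and 8.70 FPKM in knockout 1 to 4. The lowest knockout library was above the highest WT library, and replicate 2 was the highest in each group. The mean went from 3.81 ± 1.26 to 10.8 ± 4.67 FPKM (SD, n = 4 each), a ratio of 2.84, a difference of 1.26 ± 0.27 on the log2 scale (SE; adjusted p = 0.00291, limma) as deposited and 1.02 rescaled. The summed level of Dbp, Tef and Hlf was 36.8, 15.1, 30.4 and 23.4 times that of Nfil3 in WT 1 to 4. In knockout 1 to 4 it was 8.18, 2.98, 4.21 and 6.50 times.

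Ratios within a library cancel its scaling, and the ratio of Dbp to Arntl separated the groups widely. Dbp had 28.1, 21.8, 22.5 and 20.1 times the level of Arntl in WT 1 to 4, and 1.25, 6.91, 2.29 and 4.79 times in knockout 1 to 4. The lowest WT ratio was thus well above the highest knockout ratio. These ratios were formed after the values of the genes were known and carry no test. The hour of collection is not given. A difference in hour between the groups and an effect of the knockout therefore cannot be told apart in the ratios or the members.

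**Figure D2:**
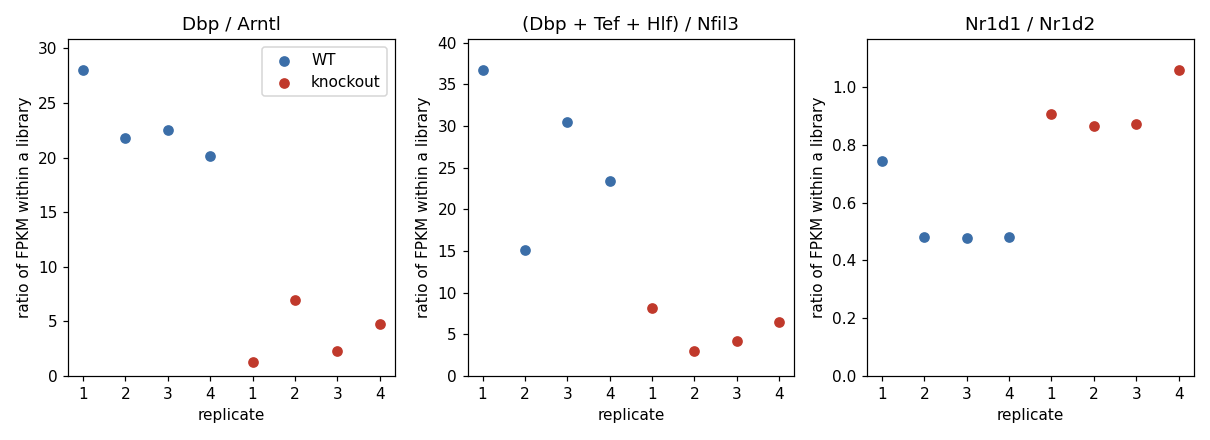
Ratio of FPKM within each library (y axis, from 0) for Dbp over Arntl, for summed Dbp, Tef and Hlf over Nfil3, and for Nr1d1 over Nr1d2, by replicate (x axis), WT in blue and knockout in red. The Dbp to Arntl ratio is 20.1 or more in WT and 6.91 or less in the knockout, and the Nr1d1 to Nr1d2 ratio is 0.745 or less in WT and 0.864 or more in the knockout.

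The order of the members by level also differed. In WT it ran Tef, Dbp, Per1, Per3, Hlf, Clock, Per2, Nfil3, Arntl and Npas2 by mean FPKM, which is per length. Neighbours whose WT libraries overlapped were Dbp and Per1, Per3 and Hlf, Hlf and Clock, Clock and Per2, Per2 and Nfil3, and Arntl and Npas2. In the knockout it ran Tef, Per1, Clock, Nfil3, Dbp, Per2, Per3, Arntl, Hlf and Npas2. Tef and Per1, and Per1 and Clock, were the neighbours there that did not overlap, and all later neighbours overlapped.

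The members also varied within the groups, and not all in the same libraries. WT 3 was the highest WT library for 6 of the 10 members (Npas2, Per1, Per2, Per3, Tef and Hlf). WT 1 was the lowest WT library for 5 (Npas2, Per3, Tef, Hlf and Nfil3) and the highest for Clock and Dbp. In the knockout, library 1 was the highest for Arntl, Clock, Npas2 and Tef and the lowest for Per3, Dbp and Nfil3. Knockout 2 was the lowest for Arntl and Clock and the highest for Per1, Per3 and Nfil3. The largest spread within a group was that of Arntl in the knockout, and the next that of Nfil3, at 2.63 times from lowest to highest knockout library. With 4 libraries a group no correlation between members was computed.

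The other genes of the loops were mostly within the spread. Of 11 repressor and nuclear receptor genes of the clock, 9 passed the minimum, 1 rose (Bhlhe41), 1 fell (Nr1d2) and 7 did not pass. Rescaling left these counts at 1 and 1, where all genes were called higher and lower at 44.9% and 16.4% as deposited and 27.0% and 26.9% rescaled. The median log2 change of the 9 was 0.098 as deposited and -0.16 rescaled, against 0.25 and 0.01 over all genes.

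Rora, a ROR receptor gene, had 3.86 ± 0.992 FPKM in WT and 5.17 ± 1.14 FPKM in the knockout (SD, n = 4 each), a log2 change of 0.35 that did not pass (limma adjusted p = 0.113). Without WT 3 or without knockout 2 the change of Rora was 0.47 in each case and passed (limma adjusted p = 0.0391 and 0.0326). These values are as deposited. Rescaled with all 8 libraries, the change of Rora was 0.12 (limma adjusted p = 0.573).

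The REV-ERB genes, which encode the repressors that oppose the ROR receptors, differed from each other. Nr1d2 (chromosome 14, 18204056 to 18239106) was lower in the knockout, going from 44.8 ± 4.03 to 34.4 ± 1.53 FPKM (SD, n = 4 each), with a log2 change of -0.37 (limma adjusted p = 0.0032) as deposited and -0.65 rescaled. Nr1d1 had 36.2, 18.8, 21.9 and 22.1 FPKM in WT 1 to 4 and 31.4, 31.4, 28.6 and 35.7 FPKM in knockout 1 to 4. WT 1 was the highest of all 8 libraries and the other WT libraries lay below every knockout library. The log2 change of 0.39 did not pass (limma adjusted p = 0.0835), and without WT 1 it was 0.58 (limma adjusted p = 0.00162). Both are as deposited. Rescaled with all 8 libraries, the change of Nr1d1 was 0.12 (limma adjusted p = 0.592). Thra, on the other strand, has an isoform known to overlap Nr1d1, so reads of that isoform and of Nr1d1 cannot be told apart if counting ignored strand. The loci given for the pair on chromosome 11 do not overlap, as Thra ends at 98765111 and Nr1d1 starts at 98767935. Thra was lower in the knockout (32.0 to 25.6 FPKM, log2 change of -0.32, limma adjusted p = 0.0416). Rescaled, the change of Thra was -0.59 (limma adjusted p = 0.00252). The ratio of Nr1d1 to Nr1d2 was 0.479 to 0.745 in WT and 0.864 to 1.06 in the knockout.

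Bhlhe41, which encodes DEC2, a repressor at E-boxes (chromosome 6, 145858243 to 145865420), rose from 2.86 ± 0.414 to 6.51 ± 1.03 FPKM (SD, n = 4 each). Its log2 change was 0.95 (limma adjusted p = 0.000135), and 0.73 rescaled. Its relative Bhlhe40 had a log2 change of 0.40 that did not pass (limma adjusted p = 0.0713), and 0.55 without knockout 1 (limma adjusted p = 0.00821). Rescaled with all 8 libraries, the change of Bhlhe40 was 0.13 (limma adjusted p = 0.555). Cry1 and Cry2, which encode the cryptochrome partners of PER, had log2 changes of 0.03 and 0.10 as deposited and -0.19 and -0.16 rescaled, and neither passed. Ciart, listed under its older symbol Gm129, had log2 changes of 0.02 and -0.20 in the same order, and Timeless of 0.01 and -0.20. Rorb and Arntl2 were below the minimum in both groups.

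**Figure D3:**
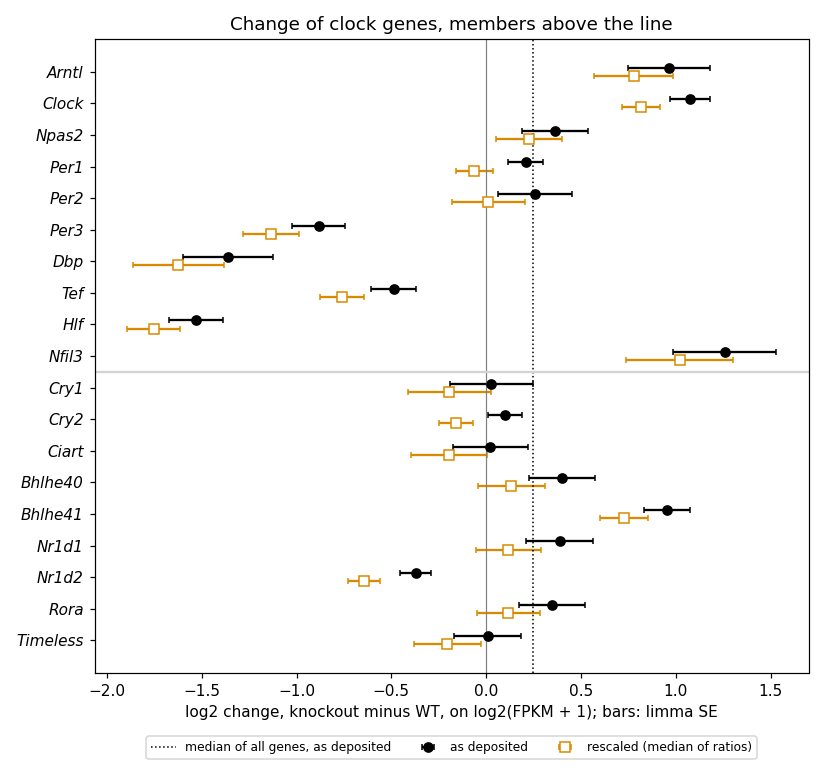
Log2 change of each gene, knockout minus WT on log2(FPKM + 1), with limma standard errors, as deposited (black) and rescaled (open orange), members above the grey line and the 9 tested repressor and receptor genes below. Rescaling moves values to the left, turns Per1, Cry1, Cry2, Ciart and Timeless to the other side of 0 and leaves the called genes on their side.

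Genes that modify clock proteins were called in both directions. Of 18 kinase, phosphatase, ubiquitin ligase and related genes, 17 were tested, 9 rose and 2 fell, where 44.9% of all genes were called higher and 16.4% lower. Rescaled, these counts were 4 and 2, beside 27.0% and 26.9%. Sirt1, a deacetylase gene, rose from 4.99 ± 0.226 to 10.5 ± 1.29 FPKM (SD, n = 4 each), and the kinase gene Gsk3b from 10.3 ± 0.360 to 19.9 ± 1.87 FPKM. Fbxw11, one of the ubiquitin ligase genes that act on PER, rose from 14.7 ± 1.36 to 27.3 ± 1.11 FPKM, while the ligase gene Fbxw7 fell from 22.3 ± 3.25 to 11.5 ± 0.992 FPKM. Each of these 4 kept its call after rescaling. The median log2 change of the 17 genes was 0.29 as deposited and 0.02 rescaled, near that of all genes.

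Genes known to be rhythmic in many tissues went in both directions. Of 9 tested, 3 rose and 4 fell, or 3 and 5 rescaled, beside the shares over all genes just given. Their median log2 change was -0.31 as deposited and -0.58 rescaled. Nampt, the enzyme of NAD salvage, fell from 46.4 ± 5.64 to 17.4 ± 3.35 FPKM (SD, n = 4 each). The cold-inducible RNA binding protein genes Cirbp and Rbm3 rose from 33.7 ± 4.64 to 92.9 ± 37.6 FPKM and from 99.3 ± 11.2 to 223 ± 53.5 FPKM. Tspan4, a tetraspanin gene, rose from 23.1 ± 3.12 to 48.7 ± 5.33 FPKM.

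Cardiac genes tied to the cardiomyocyte clock were lower wherever they were called. Of 9 listed, 8 were tested, 6 fell and 2, Klf15 and Pdk4, did not pass, where 16.4% of all genes were called lower (26.9% rescaled). The median of the 8 was -1.73 on the log2 scale. Klf15 passed after rescaling (limma adjusted p = 0.0173), which made 7. The potassium channel gene Kcnh2 fell from 23.5 ± 1.59 to 6.54 ± 1.99 FPKM (SD, n = 4 each), the triglyceride synthesis gene Dgat2 from 154 ± 32.2 to 28.8 ± 4.64 FPKM and Tcap, the titin cap gene, from 1311 ± 244 to 390 ± 80.6 FPKM. Kcnip2, a potassium channel subunit gene, was at 0.869% of its WT mean. These genes are expressed in cardiomyocytes, and the cardiomyocyte markers fell as given above, which was not tested as a part of these changes.

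Of 5 genes known as PAR bZip targets in liver and brain, 4 were tested, 2 fell and 2 rose, also after rescaling, where 16.4% of all genes were called lower and 44.9% higher as deposited. Alas1, which encodes the first enzyme of heme synthesis, fell from 98.7 ± 20.2 to 40.2 ± 9.43 FPKM (SD, n = 4 each), and the pyridoxal kinase gene Pdxk from 4.40 ± 0.421 to 2.92 ± 0.503 FPKM. Por, the cytochrome P450 reductase gene, rose from 13.4 ± 1.50 to 24.6 ± 5.84 FPKM and the retinal dehydrogenase gene Aldh1a1 from 10.4 ± 2.46 to 45.0 ± 17.8 FPKM. The list therefore had no common direction.

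Hormone and cyclic AMP responsive genes were listed because Per1 answers to both signals. Of 8 glucocorticoid responsive genes 2 rose (Fkbp5 and Errfi1) and 1 fell (Klf9), or 1 and 3 rescaled, beside 44.9% and 16.4% of all genes as deposited and 27.0% and 26.9% rescaled. Klf9 and Tsc22d3 are in this list and in that of rhythmic genes. The call of Fkbp5 rested on single libraries, with a log2 change of 1.20 (limma adjusted p = 0.0406) that did not pass without WT 2, WT 4, knockout 1, knockout 3 or knockout 4. Of 9 genes induced by cyclic AMP and serum, 8 were tested, 6 rose and 2 did not pass, and 4 rose after rescaling, where 44.9% and 27.0% of all genes were called higher. Without both WT 3 and knockout 4 the count as deposited was 4. Atf3, a stress-induced bZip gene, rose from 4.94 ± 2.33 to 43.0 ± 29.1 FPKM (SD, n = 4 each), and the immediate early genes Fos and Junb from 1.73 ± 0.869 to 9.97 ± 7.26 FPKM and from 4.91 ± 0.584 to 17.8 ± 5.51 FPKM. Knockout 2, with the highest Nfil3, was also the highest library for Fos (19.9 FPKM), Egr1 (28.1 FPKM) and Atf3 (84.5 FPKM), while Junb (21.7 FPKM) and Crem (14.2 FPKM) were highest in knockout 4. Egr1 had a log2 change of 1.37 (limma adjusted p = 0.0237) and did not pass after rescaling, without a minimum level or without WT 1, WT 3, WT 4 or knockout 4.

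**Figure D4:**
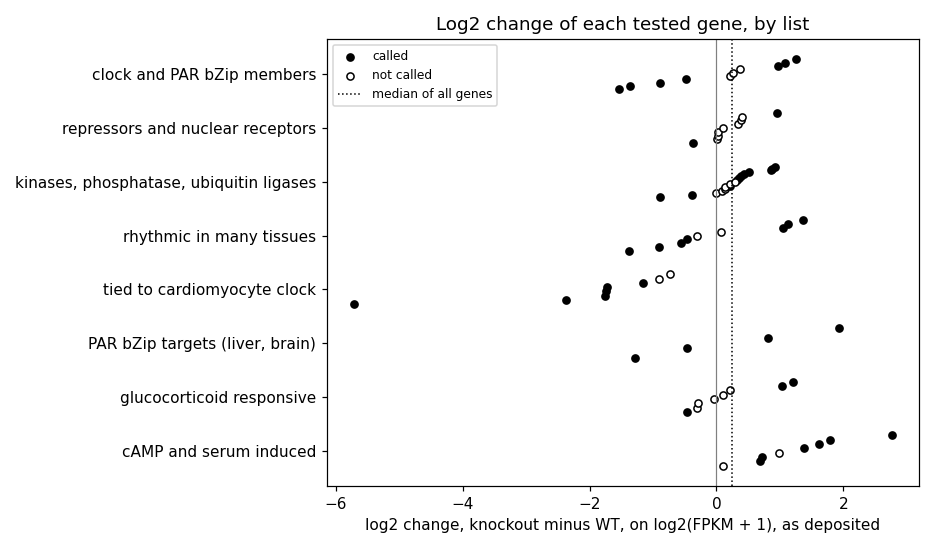
Log2 change (x axis, knockout minus WT on log2(FPKM + 1), as deposited) of each tested gene in the 8 lists (rows), filled where called by limma and open where not, with the median of all genes dotted. The cardiac clock genes lie to the left of 0, the cyclic AMP and serum genes to the right, and the members spread to both sides.

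The genes with profiles most like those of the called members over the 8 libraries were sought by the root-mean-square distance of centred log2(FPKM + 1) values. Clock had many close neighbours, 327 within 0.15, with Rnf113a2 (0.04), Nars and Gm1821 (0.05 each) the nearest. Arntl had 5 within 0.15, among them Armcx5 and Mxra8, both at 0.13. Hlf had 3 within that distance, Phyhd1 (0.12), Acot11 (0.15) and Herpud1 (0.15). Per3 had 21, led by Opa3, Slc2a4rg-ps and Lsmd1 at 0.10, 0.10 and 0.11, and Tef had 62, led by Dgke, Cobll1 and Rhebl1 at 0.08, 0.09 and 0.10. Without WT 3, Dgke and Cobll1 were themselves not called (limma adjusted p = 0.0513 and 0.0523). Dbp and Nfil3 had none within 0.15. Their nearest were Aldh1l2, Cadm4 and Sars2 at 0.16, 0.17 and 0.18 for Dbp, and Dusp27, Etv4 and Gm13889 at 0.23, 0.25 and 0.25 for Nfil3. The members themselves were left out as candidates, so this search cannot show whether members resembled each other. None of the neighbours named here was in the other clock lists.

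The authors' deposited table of their own comparison held all 10 members and marked the same 7 as significant, 3 higher and 4 lower, where it marked 23.1% of 12539 genes tested higher and 22.8% lower (45.8% in all). Its log2 fold changes, in the authors' deposited table, were 1.22 for Arntl, 0.89 for Clock, 1.23 for Nfil3, -1.27 for Per3, -1.69 for Dbp, -0.78 for Tef and -2.16 for Hlf. Each of the 7 has the q-value 0.000211, which belongs to the smallest p-value that table reports (5e-05). In the authors' deposited table Npas2, Per1 and Per2 had log2 fold changes of 0.47, -0.07 and -0.03 and q-values of 0.216, 0.707 and 0.876. The group values behind these folds are scaled differently from the library values: for Clock the authors' deposited table gives 10.2 FPKM in WT and 19.0 FPKM in the knockout.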

How the data were processed

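Poly(A) RNA of 8 ventricle libraries was measured, 4 per group. The submitters' processing notes name TopHat (version 1.0.0), Cufflinks, Cuffdiff and the build mm10, and the design text places alignment before assembly and testing. The authors deposited a table of FPKM for each gene in each library, and a comparison table holding pooled FPKM, a log2 fold change, a p-value and a q-value per gene, per the file headers. For Cufflinks, Cuffdiff and the gene annotation, versions were not given in the sources used here. FPKM falls for a gene when others take more of a library. The authors wrote 0.001 FPKM for an estimate of 0, and this was set back to 0. Of 23847 rows, 312 had no estimate in any library and 1 had none in a single library, and these were left out. Starts were converted to count from 1.

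The test was limma (version 3.58.1, R 4.3.3) with an intensity trend on log2(FPKM + 1), two-sided, for genes averaging 1 FPKM or more over the 8 libraries, with Benjamini-Hochberg adjustment over all 11974 genes and a threshold of 0.05. Changes are knockout minus WT. The script was tested on simulated data in which few genes changed. That test did not cover changes in most genes or a shift of the median gene, which these data have. Rescaling divided each library by its median ratio to the geometric mean over libraries. Genes absent under their symbol were looked up by RefSeq synonyms. Named were Med1, all members, all repressor and receptor genes, up to 4 called genes of each other list by size of change, and the 3 nearest profiles of each called member. A listed gene and a neighbouring profile are not reported here, and the counts of the repressor and receptor list leave that gene out. Other genes were named after their values were seen. The members, lists, motifs and test were chosen with earlier results of these data known. Alternatives were a pseudocount of 0.1, no minimum or one of 5 FPKM, median-ratio rescaling, quantile normalization, limma with no trend, robust variances or array weights, a block for the replicate number, and leaving out single libraries. Leaving out WT 3 and knockout 4 together was added after seeing the data.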

Additional observations from a re-analysis of the deposited data

Results flagged for a closer look

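Among the named genes, 7 values stood far from the other 3 libraries of their group, by the share of the group's range taken up by the gap. With 132 groups checked, chance flags about 1 in 20, so 7 flags are near the number that chance alone would give. Per2 had 10.7 FPKM in WT 3 against 5.34 to 6.01 in the other WT libraries. Per3 had 9.34 FPKM in WT 1 against 13.1 to 13.8. Bhlhe40 had 17.8 FPKM in knockout 1 against 26.9 to 28.3 in the other knockout libraries. Timeless had 3.76 FPKM in WT 2 against 2.88 to 3.01. Of the genes with neighbouring profiles, Acot11 had 2.90 FPKM in knockout 4 against 1.34 to 1.50, Aldh1l2 3.75 FPKM in WT 2 against 5.76 to 6.08, and Rhebl1 2.38 FPKM in WT 3 against 1.63 to 1.75. Their causes were not tested.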

How the results depend on the processing

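The 7 called members kept their direction and their call in each alternative that could be fitted for them, 18 for each but Arntl, which fell below the minimum of 5 FPKM and had 17. Their log2 changes ranged from 0.77 to 1.36 for Arntl, 0.82 to 1.16 for Clock, 1.02 to 1.45 for Nfil3, -1.13 to -0.81 for Per3, -1.62 to -1.18 for Dbp, -0.76 to -0.40 for Tef and -1.85 to -1.43 for Hlf. Over all genes, rescaling gave 3236 higher and 3223 lower, and quantile normalization 3437 and 3067, against 5371 and 1964 as deposited. Members called higher numbered 3 to 5 with single libraries left out, and 6 without both WT 3 and knockout 4. Over all genes 4888 to 5263 were called higher with single libraries left out. The count over all genes without both lay within that range. Whether the members rose more often than other genes in these settings was not tested. Repressor and receptor genes called higher were 1 to 2 with single libraries left out, 2 with array weights and 0 at a minimum of 5 FPKM. At that minimum 1 PAR bZip target was lower. Kinase and ligase genes called higher were 4 rescaled, 5 quantile normalized and 8 to 12 with single libraries left out (12 without knockout 4). Cyclic AMP and serum genes called higher were 5 without knockout 4 and 4 without both WT 3 and knockout 4, where rhythmic genes called lower were 3. Glucocorticoid responsive genes called higher were 1 without a minimum, rescaled, quantile normalized, with robust variances or with array weights, and 1 to 2 with single libraries left out. Those called lower were 3 rescaled or quantile normalized, 2 with array weights and 1 to 2 with single libraries left out. For all of these the cause was not tested beyond the fewer genes or samples of the setting.

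Signs turned only in genes that were not called. Rescaled and quantile normalized log2 changes were -0.062 and -0.061 for Per1, -0.19 and -0.16 for Cry1, -0.16 and -0.15 for Cry2, -0.20 and -0.17 for Ciart, and -0.20 and -0.16 for Timeless. With array weights they were -0.054 for Ciart and -0.078 for Cry1. For Timeless it was -0.0039 at a pseudocount of 0.1 and -0.012 without both WT 3 and knockout 4. With single libraries left out the ranges were -0.14 to 0.18 for Ciart, -0.12 to 0.17 for Cry1 and -0.084 to 0.18 for Timeless.

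Replicate numbers are shared by the groups in the titles only. The deposited library names carry different numbers in each group, and the sources used here state no pairing. Same-numbered libraries did not deviate together (correlations of 0.14, 0.03, -0.04 and -0.01), and only number 1 was closest to its own number. With the replicate block, 3 members were higher and 4 lower as before, and glucocorticoid responsive genes called lower were 2. Klf15 passed with the block (limma adjusted p = 0.0157), which made 7 cardiac genes lower, and 7 cyclic AMP and serum genes were higher. The number of fragments per library is unknown, which limits what can be said of members near 1 FPKM, Arntl and Npas2 above all.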
